A study of Homo sapiens with 12 samples.

Results

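The replication-dependent histone genes were taken as every gene in the table whose symbol begins with HIST1H, HIST2H, HIST3H or HIST4H, which gave 72 of 23619 genes. By class they were 6 H1, 18 H2A, 20 H2B, 13 H3 and 15 H4 genes, and by cluster 56 belonged to HIST1, 12 to HIST2, 3 to HIST3 and 1 to HIST4. Their transcripts were measured by poly(A)-selected, stranded RNA sequencing of MOLT4, a human cell line established from T-cell acute lymphoblastic leukemia, treated for 6 h. Cells received 250 nM SNS-032, 250 nM THAL-SNS-032 or 250 nM NVP-2, and control cells received 0.1% DMSO, the vehicle, with 3 libraries in each of the 4 groups. SNS-032 inhibits several cyclin-dependent kinases, CDK9 among them. THAL-SNS-032 is a CDK9 degrader in which SNS-032 is joined by a linker to a thalidomide-type cereblon ligand, and NVP-2 inhibits CDK9.

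Replication-dependent histone genes are transcribed in S phase, when new DNA must be packed into nucleosomes. Pairs of H2A and H2B and of H3 and H4 form the nucleosome core, and H1 binds the linker DNA between cores. Most of their mRNAs carry no poly(A) tail: they end just after a short stem-loop, which the stem-loop binding protein SLBP holds while the transcript is cut. Some of these genes also make polyadenylated transcripts, and the replication-independent variant histones do so as a rule. In other human cells, loss of CDK9 has been reported to leave histone transcripts uncut at the stem-loop and polyadenylated further on. A poly(A)-selected library may therefore hold only part of the RNA of these genes. How large that part was here, and whether it differed between groups, was not tested.

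Levels are in FPKM as deposited, a unit that divides reads by transcript length. Differences are in mean log2(FPKM + 1), with the standard error (SE) of the fit, and this scale compresses the change of a gene at or near the floor, about 0.1 FPKM. A gene was called higher or lower at a Benjamini-Hochberg adjusted p under 0.05 in limma, taken over all 11379 genes whose mean over the 12 libraries was at least 1 FPKM. On the deposited scale the median of these genes lay -1.92 from DMSO for SNS-032, -1.90 for THAL-SNS-032 and -2.54 for NVP-2, while the library medians of the spike-in RNAs added at lysis lay between -0.027 and 0.038. SNS-032 replicate 1 was the lowest library of its group, at -2.61 for the median gene, against -1.87 and -2.03 in replicates 2 and 3. The DMSO cells had all 12 T-lineage markers and 0 of 4 myeloid and 0 of 3 erythroid markers at 1 FPKM or more, together with 2 of 5 B-lineage markers and 1 of 5 fibroblast and epithelial markers. It is not given whether each library of a group is a culture of its own, so the p-values measure the spread between these libraries. Read depth is unknown. In bulk RNA, fewer cells that make a transcript and less of it per cell cannot be told apart.

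The stem-loop is the feature that sets these mRNAs apart from other mRNAs, and it is shown here for genes that rose or fell with NVP-2 and for HIST2H4A, which was not called, as an example of the other H4 form. It was found in the GENCODE 29 transcripts of 32 of the 72 genes. Many of the other 40 have only short models, such as 312 bases for HIST1H4D, 381 for HIST1H2BK and 411 for HIST1H3A. Such models may end before the stem-loop, so not finding it there does not mean that the gene lacks it. Capitals mark the 16 bases of the stem-loop, with 5 bases on each side, written 5′ to 3′ as DNA.
HIST1H2BH: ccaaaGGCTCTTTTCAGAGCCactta
HIST3H2A: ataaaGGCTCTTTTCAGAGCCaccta
HIST3H2BB: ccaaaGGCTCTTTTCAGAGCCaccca
HIST1H2BC: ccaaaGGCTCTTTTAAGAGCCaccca
HIST1H3G: aaaaaGGCTCTTTTAAGAGCCgccta
HIST1H4J: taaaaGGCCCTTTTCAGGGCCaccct
HIST2H4A: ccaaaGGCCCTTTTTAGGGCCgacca
The form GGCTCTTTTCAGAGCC was the most frequent and occurred in 16 genes, of which 6 were H2A, 8 H2B and 2 H3. The form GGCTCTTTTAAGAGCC occurred in 3 H2B and 2 H3 genes. H4 genes had their own forms, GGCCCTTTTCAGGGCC in 5 and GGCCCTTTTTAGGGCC in 3. Genes that rose and genes that fell with NVP-2 shared the same form: HIST3H2A, which fell, and HIST3H2BB, which rose, both had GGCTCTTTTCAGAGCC, and HIST1H2BC, which fell, and HIST1H3G, which rose, both had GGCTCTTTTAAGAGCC.

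The 10 genes with the highest mean held 62.2% of the summed FPKM with SNS-032, 68.0% with THAL-SNS-032, 51.9% with NVP-2 and 70.3% in DMSO. The first 3 of them, HIST1H2BH and the near copies HIST1H4K and HIST1H4J, held 35.7%, 40.0%, 25.9% and 37.2% in the same order. The 72 genes together summed to 213, 425 and 342 FPKM with SNS-032, 299, 351 and 329 FPKM with THAL-SNS-032 and 287, 357 and 282 FPKM with NVP-2, against 428, 436 and 441 FPKM in DMSO. All compound libraries except SNS-032 replicate 2 were well below the DMSO libraries, and that one was just under the lowest of them. The group means were 75.1%, 75.0% and 71.0% of the DMSO mean. Of the 72 genes, 56 averaged at least 1 FPKM and entered the test, 14 averaged at least 5 FPKM, and 4 (HIST1H1A, HIST1H2APS1, HIST1H2BA and HIST1H4F) stayed at or below 0.15 FPKM in all 12 libraries. RefSeq lists 3 of the 72 as transcribed pseudogenes: HIST1H2APS1, and HIST2H2BA and HIST2H2BC, which were tested.

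With SNS-032, 6 of the 56 tested histone genes were higher than in DMSO, against 1.54% of all tested genes, and 11 were lower, against 94.6% of all tested genes. With THAL-SNS-032, 6 were higher (1.37% of all genes) and 14 lower (94.8%). With NVP-2, 16 were higher (0.448% of all genes) and 15 lower (97.1%). The 3 comparisons share the DMSO libraries. The median difference over the 56 genes was -0.07 for SNS-032, -0.20 for THAL-SNS-032 and -0.07 for NVP-2, beside the medians of all tested genes near -2 given above. The difference was above the median of all genes for 55 of the 56 with SNS-032 and for all 56 with THAL-SNS-032 and NVP-2. On this scale a gene of low level in DMSO cannot fall as far as these medians, even at the floor. That fixed the outcome for many of the 42 genes averaging 1 to 5 FPKM. The 14 averaging at least 5 FPKM mostly had room to fall that far, and all 14 lay above the median with each compound. The same limit holds for the centred counts that follow. After each library was centred on its own median, 55 of the 56 were higher and 0 lower with SNS-032, where 52.6% of all tested genes were higher and 31.1% lower. With THAL-SNS-032, 56 were then higher and 0 lower (57.2% and 29.2% of all genes), and with NVP-2 56 were higher and 0 lower (59.7% and 28.1%). The median tested gene then lay 0.25, 0.36 and 0.42 above DMSO. Every histone fall reported here against DMSO is thus a fall on the deposited scale, which centring turned to a higher value for all but HIST3H2A with SNS-032. The counts for SNS-032 moved most when a library was left out: without SNS-032 replicate 1 they were 13 higher and 10 lower, and without replicate 2 they were 3 higher and 18 lower. For THAL-SNS-032 the 14 lower genes became 9 without THAL-SNS-032 replicate 1 and 9 without DMSO replicate 3.

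**Figure D1:**
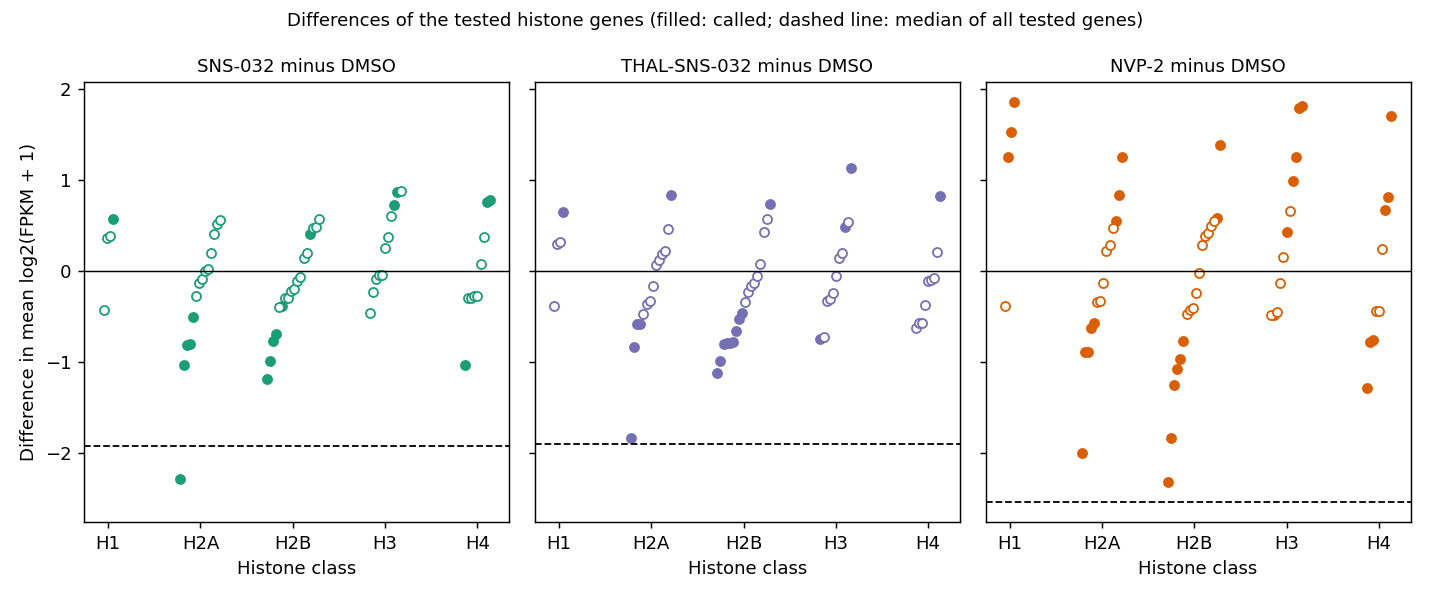
Difference in mean log2(FPKM + 1) between each compound and DMSO for the 56 tested histone genes, 1 point a gene, arranged by class, with filled points for called genes and the dashed line at the median of all tested genes. On the deposited scale the points lie on both sides of 0, between -2.32 and 1.85 with NVP-2, while the dashed lines lie at -1.92, -1.90 and -2.54. After median centring the called falls are higher values, except HIST3H2A with SNS-032.

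Of the 56 tested genes, 7 had a DMSO mean under 1 FPKM and so reached the filter through the compound groups, and 6 of these 7 were among the 16 called higher with NVP-2. Of these 7, 4 were among the 6 called higher with SNS-032 and 4 among the 6 called higher with THAL-SNS-032. A further 6 had an NVP-2 mean under 1 FPKM, 3 of them among the 15 called lower. With THAL-SNS-032, 8 tested genes had a mean under 1 FPKM, 4 of them among the 14 called lower. With SNS-032 there was 1 such gene, and it was not called lower. With all 72 genes tested and no filter, 4 were higher and 10 lower with SNS-032, 5 higher and 11 lower with THAL-SNS-032, and 16 higher and 18 lower with NVP-2. Of the 14 genes averaging at least 5 FPKM, 3 were higher and 6 lower with NVP-2. Over the 3 comparisons, 5 genes were higher with every compound (HIST1H1D, HIST1H2BD, HIST1H3G, HIST1H4D and HIST2H3D), 7 were lower with every compound (HIST1H2BC, HIST1H2BH, HIST1H2BK, HIST2H2AC, HIST2H2BC, HIST2H2BE and HIST3H2A), 18 were called with none, and 0 were called in opposite directions. Of the 5 higher with every compound, all but HIST1H2BD averaged under 1 FPKM in DMSO. Each of the 5 lost 1 of its calls when a single library was left out: HIST1H1D, HIST1H2BD and HIST1H3G with SNS-032, HIST2H3D with THAL-SNS-032 and HIST1H4D with NVP-2. Of the 7, HIST1H2BH lost its THAL-SNS-032 call in this way.

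Reads cannot be assigned with certainty among some of these genes. HIST2H4A and HIST2H4B had equal values in all 12 libraries, HIST2H2AA3 and HIST2H2AA4 differed by at most 1.70% in a library and HIST1H4J and HIST1H4K by at most 4.97%, so each pair is read as 1 measurement. With each pair counted once, 53 genes were tested and 16 were higher and 14 lower with NVP-2. The median difference from DMSO was then -0.05 for SNS-032, -0.17 for THAL-SNS-032 and 0.16 for NVP-2, so the sign for NVP-2 depends on the copies. The counts by class, cluster and other groups hold both genes of a pair. How reads that match several genes were counted is not given. In GENCODE 29, 16 of the 72 genes overlap another gene, HIST1H2BD, HIST2H2BC and HIST2H3A among them. The libraries were stranded but whether the counting used strand is not given, so their values may hold reads of the overlapping gene.

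H1 linker histone genes rose with NVP-2: 3 of the 4 tested were higher and 0 lower, with a median of 1.39, while with SNS-032 and with THAL-SNS-032 1 was higher and 0 lower. HIST1H1B (H1-5 in RefSeq) had 1.03, 3.51 and 2.19 FPKM with SNS-032, 1.88, 2.59 and 1.49 FPKM with THAL-SNS-032 and 7.33, 8.598 and 7.13 FPKM with NVP-2, against 0.933, 1.67 and 1.69 FPKM in DMSO. All NVP-2 libraries stood above all others, and the SNS-032 and DMSO libraries overlapped. The NVP-2 difference was 1.85 (SE 0.24, adjusted p = 2e-06), the largest rise of any histone gene with that compound. HIST1H1E (H1-4) had 1.05, 2.404 and 1.33 FPKM with SNS-032, 1.102, 1.95 and 1.296 FPKM with THAL-SNS-032 and 3.17, 3.91 and 3.81 FPKM with NVP-2, against 0.931, 1.23 and 0.711 FPKM in DMSO. Here too the NVP-2 libraries lay above every other library, with a difference of 1.25 (SE 0.19, adjusted p = 9.86e-06). HIST1H1D (H1-3) averaged 1.41 ± 0.63 FPKM with SNS-032, 1.48 ± 0.39 FPKM with THAL-SNS-032 and 3.55 ± 0.42 FPKM with NVP-2, against 0.583 ± 0.21 FPKM in DMSO (SD, n = 3 each). It was called with each compound, at 0.57, 0.65 and 1.53, but the SNS-032 libraries overlapped DMSO and that call was lost without SNS-032 replicate 3. HIST1H1C (H1-2), the H1 gene with the highest level, went the other way without being called. It had 4.02, 8.296 and 8.18 FPKM with SNS-032, 6.21, 7.61 and 6.52 FPKM with THAL-SNS-032 and 5.76, 7.997 and 6.72 FPKM with NVP-2, against 9.02, 8.95 and 9.37 FPKM in DMSO. All compound libraries lay below the DMSO libraries, and the difference with NVP-2 was -0.38 (SE 0.21, adjusted p = 0.0925). The remaining H1 genes, HIST1H1A and the testis gene HIST1H1T, stayed at or below 0.212 FPKM.

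The promoters of the 4 expressed H1 genes are shown because 3 of these genes rose with NVP-2 and HIST1H1C did not. Each run is the 140 bases before the transcription start in RefSeq (GRCh38.p14), 5′ to 3′ on the strand of the gene, and capitals mark CCAAT, the TATA box letters TATAAA, and the letters AAACACA on either strand.
HIST1H1B, chr6:27867589-27867728, minus strand: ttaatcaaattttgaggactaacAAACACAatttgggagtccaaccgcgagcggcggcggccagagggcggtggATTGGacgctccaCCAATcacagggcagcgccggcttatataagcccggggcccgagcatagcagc
HIST1H1D, chr6:26234988-26235127, minus strand: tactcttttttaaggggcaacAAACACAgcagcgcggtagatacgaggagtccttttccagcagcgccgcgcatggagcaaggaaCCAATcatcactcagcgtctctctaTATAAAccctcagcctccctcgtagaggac
HIST1H1E, chr6:26156189-26156328, plus strand: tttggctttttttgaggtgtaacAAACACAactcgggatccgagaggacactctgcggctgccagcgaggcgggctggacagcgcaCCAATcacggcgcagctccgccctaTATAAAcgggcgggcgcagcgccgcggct
HIST1H1C, chr6:26056471-26056610, minus strand: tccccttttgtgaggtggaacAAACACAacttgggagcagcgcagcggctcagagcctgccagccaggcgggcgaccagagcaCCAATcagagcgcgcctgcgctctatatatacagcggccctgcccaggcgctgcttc
All 4 hold AAACACA, known as the H1 box, and CCAAT. The letters TATAAA are in HIST1H1D and HIST1H1E and in neither HIST1H1B nor HIST1H1C. A gene that rose and the gene that was not called thus share the absence of these exact letters. Other forms of the TATA box were not searched for, so this does not mean that the 2 promoters lack one. A promoter of 300 bases (250 before and 50 after the start) was at hand for 64 of the 72 genes. AAACACA was in 6 of 6 H1 promoters, 1 of 16 H2A, 0 of 18 H2B, 1 of 11 H3 and 0 of 13 H4 promoters, and in 5.76% of the 27305 promoters of the table. CCAAT was in all 51 H1, H2A, H2B and H3 promoters and in 3 of 13 H4 promoters (35.7% of all promoters). TATAAA was in 42 of 64 (11.95% of all). ATTTGCAT, the octamer of histone H2B promoters, was in 14 of 18 H2B and 11 of 16 H2A promoters and in 1 H3 promoter (1.80% of all). That H3 promoter, of HIST1H3D, is the same stretch as that of HIST1H2AD. Many H2A and H2B neighbours transcribed away from each other also share much of their stretches, so these counts are not of separate promoters. Matches of different motifs overlapped in 4 promoters. Of the tested H2B genes with a promoter at hand, 12 had the octamer, of which 0 were higher and 5 lower with NVP-2. The other 4 lacked it, of which 2 were higher and 0 lower. HIST2H2BA and HIST2H2BC, the latter lower with NVP-2, had no promoter at hand and are outside this split. This split was made after the values were seen and was not tested.

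Of 14 tested H2A genes, 0 were higher and 5 lower with SNS-032, 1 higher and 4 lower with THAL-SNS-032, and 3 higher and 5 lower with NVP-2. HIST2H2AC, the most abundant, had 11.4, 16.02 and 15.02 FPKM with SNS-032, 15.9, 20.3 and 13.4 FPKM with THAL-SNS-032 and 15.3, 18.5 and 13.4 FPKM with NVP-2, against 29.9, 30.9 and 28.7 FPKM in DMSO. The compound libraries were all lower than the DMSO libraries, with differences of -1.04, -0.83 and -0.89 (SE 0.18 each). HIST2H2AA3 had 8.89, 15.5 and 13.2 FPKM with SNS-032, 12.5, 17.9 and 13.5 FPKM with THAL-SNS-032 and 15.3, 20.7 and 16.6 FPKM with NVP-2, against 20.8, 20.3 and 25.4 FPKM in DMSO. It was lower with SNS-032 (-0.80 (SE 0.21, adjusted p = 0.00167)) and THAL-SNS-032 (-0.58, adjusted p = 0.0142), and with NVP-2 it overlapped DMSO (-0.33, adjusted p = 0.136). Its near copy HIST2H2AA4 gave -0.81, -0.59 and -0.34. The THAL-SNS-032 calls of both were lost without THAL-SNS-032 replicate 1 or without DMSO replicate 3.

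HIST3H2A, an H2A gene of the small HIST3 cluster, had the largest fall with SNS-032 and with THAL-SNS-032. It had 0.539, 1.77 and 1.82 FPKM with SNS-032, 1.77, 2.66 and 2.02 FPKM with THAL-SNS-032 and 1.84, 1.95 and 1.56 FPKM with NVP-2, against 7.07, 12.3 and 11.8 FPKM in DMSO. No compound library reached 3 FPKM and no DMSO library was under 7 FPKM. The differences were -2.28 (SE 0.23, adjusted p = 1.77e-07), -1.83 (SE 0.23, adjusted p = 2.11e-06) and -2.0 (SE 0.23, adjusted p = 6e-07). With SNS-032 it is the histone gene that stayed below DMSO after centring, at -0.11 and no longer called, and with THAL-SNS-032 and NVP-2 the centred differences were 0.43 and 0.96. HIST1H2AJ was higher with THAL-SNS-032 and NVP-2. It had 3.13, 6.62 and 6.63 FPKM with SNS-032, 6.76, 8.19 and 5.55 FPKM with THAL-SNS-032 and 6.61, 8.26 and 5.58 FPKM with NVP-2, against 3.73, 1.84 and 5.104 FPKM in DMSO. The DMSO libraries were spread widely, and the call of 0.84 (SE 0.28, adjusted p = 0.0101) with THAL-SNS-032, like that of 0.83 with NVP-2, was lost without DMSO replicate 2. HIST1H2AC had its lowest mean with NVP-2. It had 3.99, 5.67 and 5.55 FPKM with SNS-032, 1.85, 3.97 and 3.804 FPKM with THAL-SNS-032 and 1.53, 2.31 and 1.71 FPKM with NVP-2, against 4.96, 3.57 and 4.35 FPKM in DMSO. The NVP-2 difference from DMSO was -0.90 (SE 0.21, adjusted p = 0.000718), and with SNS-032 it was 0.19 and not called. HIST1H2AD and HIST1H2AH also rose with NVP-2, at 1.25 and 0.54, and HIST1H2AG and HIST1H2AK fell, at -0.62 and -0.57. The HIST1H2AH call was lost without NVP-2 replicate 2 or DMSO replicate 1, that of HIST1H2AG without NVP-2 replicate 2 or DMSO replicate 3, and that of HIST1H2AK without DMSO replicate 3.

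H2B genes gave 5 of the 11 falls with SNS-032, 9 of the 14 with THAL-SNS-032 and 6 of the 15 with NVP-2. Of 18 tested, 1 was higher and 5 lower with SNS-032, 1 higher and 9 lower with THAL-SNS-032, and 2 higher and 6 lower with NVP-2. HIST1H2BH, the most abundant histone gene, had 34.3, 47.96 and 51.04 FPKM with SNS-032, 48.3, 55.6 and 53.4 FPKM with THAL-SNS-032 and 29.2, 37.7 and 27.5 FPKM with NVP-2, against 61.03, 82.1 and 86.5 FPKM in DMSO. Each compound group lay below DMSO without overlap, and NVP-2 gave the lowest mean of the 3. The differences were -0.77 (SE 0.20, adjusted p = 0.00163), -0.52 (SE 0.20, adjusted p = 0.0198) and -1.25 (SE 0.20, adjusted p = 1.81e-05), and the THAL-SNS-032 call was lost without THAL-SNS-032 replicate 1, DMSO replicate 2 or DMSO replicate 3. HIST1H2BK had 13.4, 26.8 and 21.4 FPKM with SNS-032, 19.7, 21.5 and 17.96 FPKM with THAL-SNS-032 and 6.797, 8.78 and 6.398 FPKM with NVP-2, against 36.04, 42.1 and 42.6 FPKM in DMSO. Its NVP-2 libraries were the lowest and the other compounds lay between them and DMSO. The NVP-2 difference of -2.32 (SE 0.21, adjusted p = 3.42e-08) was the largest fall of any histone gene with that compound, beside -0.98 with SNS-032 and -0.99 with THAL-SNS-032. HIST1H2BD moved the other way and was higher with every compound. It had 9.58, 13.5 and 10.6 FPKM with SNS-032, 13.04, 15.96 and 13.6 FPKM with THAL-SNS-032 and 11.7, 14.5 and 11.8 FPKM with NVP-2, against 7.33, 7.22 and 10.1 FPKM in DMSO. The SNS-032 libraries overlapped DMSO and the others did not, with differences of 0.41, 0.73 and 0.58. The SNS-032 call was lost without SNS-032 replicate 2, DMSO replicate 1 or DMSO replicate 2.

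A further 3 H2B genes were lower with every compound. HIST1H2BC had 1.91, 4.78 and 2.45 FPKM with SNS-032, 3.43, 4.44 and 4.31 FPKM with THAL-SNS-032 and 3.52, 2.73 and 3.31 FPKM with NVP-2, against 8.91, 9.202 and 5.697 FPKM in DMSO. Its differences were -1.18, -0.80 and -1.07, with no overlap with DMSO for any compound. HIST2H2BC, which RefSeq lists as the transcribed pseudogene H2BC20P, had 4.86, 9.75 and 7.38 FPKM with SNS-032, 4.19, 4.26 and 6.81 FPKM with THAL-SNS-032 and 2.29, 2.57 and 3.19 FPKM with NVP-2, against 12.9, 10.7 and 12.6 FPKM in DMSO. The NVP-2 libraries were lowest, and the differences were -0.69, -1.12 and -1.83. HIST2H2BE had 0.789, 1.504 and 1.53 FPKM with SNS-032, 0.765, 0.724 and 0.6101 FPKM with THAL-SNS-032 and 0.365, 0.611 and 0.512 FPKM with NVP-2, against 2.09, 1.91 and 1.79 FPKM in DMSO. It was lower with each compound, at -0.38, -0.78 and -0.97, and SNS-032 lay nearest to DMSO.

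HIST3H2BB is the neighbour of HIST3H2A and is transcribed away from it. It had 0.416, 3.25 and 1.33 FPKM with SNS-032, 1.41, 1.94 and 2.59 FPKM with THAL-SNS-032 and 4.69, 5.19 and 4.299 FPKM with NVP-2, against 0.775, 0.686 and 2.52 FPKM in DMSO. All NVP-2 libraries were above all others, with a difference of 1.38 (SE 0.33, adjusted p = 0.000985), while SNS-032 and THAL-SNS-032 gave 0.14 and 0.42 and were not called. With NVP-2 the pair thus moved in opposite directions on the deposited scale, and both were above DMSO after centring, at 0.96 for HIST3H2A and 4.34 for HIST3H2BB. The 229 bases between their starts, which both promoters share, are shown for that reason (GRCh38.p14, plus strand, the strand of HIST3H2BB). Capitals mark CCAAT on either strand.
HIST3H2A to HIST3H2BB, chr1:228457874-228458102: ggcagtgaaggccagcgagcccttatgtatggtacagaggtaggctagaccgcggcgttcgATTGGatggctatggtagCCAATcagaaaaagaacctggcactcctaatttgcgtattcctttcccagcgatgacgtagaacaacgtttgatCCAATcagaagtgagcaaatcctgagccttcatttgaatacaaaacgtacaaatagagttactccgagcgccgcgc
The stretch holds CCAAT letters in both orientations and neither TATAAA nor ATTTGCAT. Among the 64 genes with a promoter at hand, 11 pairs of an H2A and an H2B gene start head to head within 500 bases. Both genes were tested in 9. Genes without a promoter at hand, such as HIST1H2AH, were not placed in pairs. With NVP-2, 0 of the 9 had both genes higher and 2 had both lower (HIST1H2BC with HIST1H2AC, and HIST2H2BE with HIST2H2AC). A further 4 had 1 gene called and 2 had neither called. Of these 9, the HIST3 pair was the only one called in opposite directions. With SNS-032 and with THAL-SNS-032, 1 pair was lower in both genes and 0 were opposite.

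**Figure D2:**
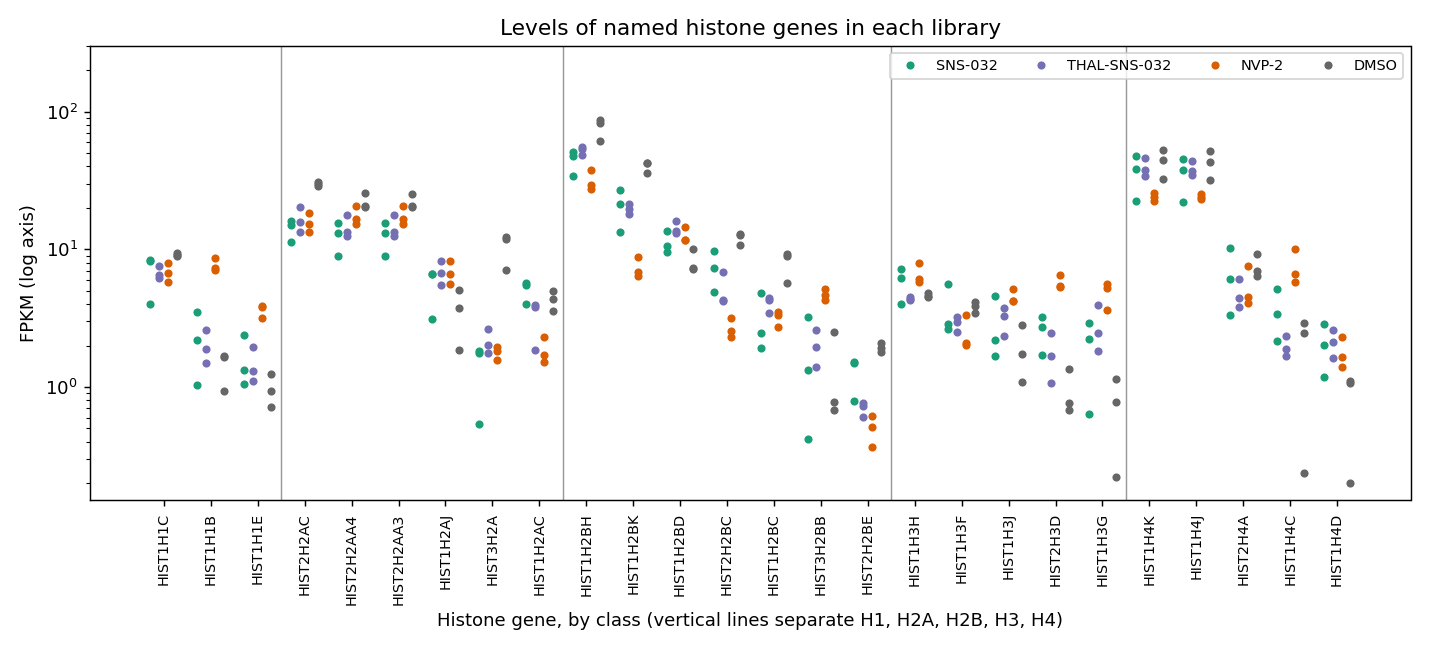
Level in FPKM, on a log axis, of the named histone genes in each of the 12 libraries, ordered by class and then by mean, with the compounds left of DMSO. NVP-2 points lie above all others for HIST1H1B, HIST1H1E, HIST3H2BB, HIST2H3D and HIST1H4C, and below all others for HIST1H2BK and HIST2H2BC. After median centring NVP-2 lies above DMSO for HIST1H2BK and HIST2H2BC as well.

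H3 genes were mostly low and more of them rose than fell with NVP-2: of 11 tested, 5 were higher and 1 lower, with a median of 0.43. With SNS-032, 2 were higher and 0 lower, and with THAL-SNS-032, 2 higher and 1 lower. HIST1H3H, the most abundant, had 4.01, 6.19 and 7.202 FPKM with SNS-032, 4.32, 4.36 and 4.53 FPKM with THAL-SNS-032 and 5.76, 7.98 and 6.04 FPKM with NVP-2, against 4.79, 4.57 and 4.47 FPKM in DMSO. NVP-2 lay just above DMSO, at 0.43 (SE 0.18, adjusted p = 0.0298), a call lost without NVP-2 replicate 2 or without any 1 of the DMSO libraries. HIST1H3F had 2.62, 5.57 and 2.88 FPKM with SNS-032, 2.97, 2.505 and 3.24 FPKM with THAL-SNS-032 and 2.01, 3.35 and 2.097 FPKM with NVP-2, against 3.88, 4.11 and 3.45 FPKM in DMSO. It was the 1 H3 gene called lower with NVP-2 (-0.48 (SE 0.21, adjusted p = 0.0360)), and the call was lost without NVP-2 replicate 1 or 3 or DMSO replicate 1 or 2. HIST1H3J had 2.21, 4.57 and 1.68 FPKM with SNS-032, 3.26, 3.73 and 2.36 FPKM with THAL-SNS-032 and 5.19, 4.23 and 4.24 FPKM with NVP-2, against 1.74, 1.095 and 2.82 FPKM in DMSO. It was called with NVP-2 only, at 0.99 (SE 0.25, adjusted p = 0.00172), beside 0.38 with SNS-032 and 0.54 with THAL-SNS-032.

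Both of the largest H3 rises with NVP-2 were in genes that averaged under 1 FPKM in DMSO. HIST2H3D had 1.71, 3.21 and 2.71 FPKM with SNS-032, 1.68, 2.47 and 1.06 FPKM with THAL-SNS-032 and 5.29, 6.55 and 5.38 FPKM with NVP-2, against 0.7701, 0.679 and 1.36 FPKM in DMSO. The NVP-2 libraries were well above the rest and the SNS-032 libraries were also clear of DMSO, with differences of 1.81 (SE 0.21, adjusted p = 4.32e-07) and 0.86 (SE 0.21, adjusted p = 0.000924). THAL-SNS-032 overlapped DMSO and was called at 0.48 (adjusted p = 0.0347), a call lost without THAL-SNS-032 replicate 1 or 2 or DMSO replicate 1 or 2. HIST1H3G had 0.639, 2.23 and 2.93 FPKM with SNS-032, 2.46, 3.92 and 1.83 FPKM with THAL-SNS-032 and 3.65, 5.65 and 5.24 FPKM with NVP-2, against 0.221, 1.14 and 0.781 FPKM in DMSO. It was higher with each compound, at 0.72, 1.12 and 1.79. SNS-032 replicate 1 lay among the DMSO libraries, and the SNS-032 call was lost without SNS-032 replicate 2 or 3 or DMSO replicate 1. HIST2H3A was also higher with NVP-2 (1.25), with 1 DMSO library inside the NVP-2 range, and the call was lost without DMSO replicate 2.

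H4 genes were split. Of 9 tested, 2 were higher and 1 lower with SNS-032, 1 higher and 0 lower with THAL-SNS-032, and 3 higher and 3 lower with NVP-2. The 3 lower were HIST1H4I and the near copies HIST1H4J and HIST1H4K, which are 1 measurement. HIST1H4J had 21.98, 44.9 and 37.9 FPKM with SNS-032, 34.6, 37.1 and 44.1 FPKM with THAL-SNS-032 and 23.9, 25.3 and 23.1 FPKM with NVP-2, against 51.6, 42.9 and 31.9 FPKM in DMSO. Only with NVP-2 did the libraries lie below all DMSO libraries, with a difference of -0.76 (SE 0.24, adjusted p = 0.00691), and with SNS-032 (-0.30) and THAL-SNS-032 (-0.10) it was not called. Its near copy HIST1H4K had 22.3, 47.2 and 38.1 FPKM with SNS-032, 34.1, 37.9 and 45.8 FPKM with THAL-SNS-032 and 24.02, 25.8 and 22.5 FPKM with NVP-2, against 52.2, 44.4 and 32.3 FPKM in DMSO. The difference with NVP-2 was -0.79. HIST2H4A, equal to HIST2H4B, had 3.34, 10.2 and 6.096 FPKM with SNS-032, 3.79, 4.46 and 6.12 FPKM with THAL-SNS-032 and 4.54, 7.57 and 4.09 FPKM with NVP-2, against 9.32, 6.43 and 6.96 FPKM in DMSO. SNS-032 and NVP-2 overlapped DMSO, THAL-SNS-032 lay just under it, and it was called with no compound (-0.27, -0.57 and -0.45).

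Among lower H4 genes, HIST1H4C had 2.15, 5.19 and 3.39 FPKM with SNS-032, 1.67, 2.33 and 1.88 FPKM with THAL-SNS-032 and 5.78, 9.99 and 6.67 FPKM with NVP-2, against 2.46, 2.94 and 0.237 FPKM in DMSO. NVP-2 lay above all other libraries, at 1.70 (SE 0.36, adjusted p = 0.000299). The SNS-032 difference of 0.78 (adjusted p = 0.0467) overlapped DMSO and was lost without SNS-032 replicate 2 or 3 and without 4 other libraries in turn. HIST1H4D had 1.18, 2.88 and 2.01 FPKM with SNS-032, 2.58, 2.11 and 1.62 FPKM with THAL-SNS-032 and 1.65, 2.31 and 1.39 FPKM with NVP-2, against 1.07, 0.2 and 1.11 FPKM in DMSO. It was higher with each compound without overlap, at 0.76, 0.83 and 0.67, and the NVP-2 call was lost without NVP-2 replicate 2 or DMSO replicate 2. HIST1H4I fell with SNS-032 (-1.03) and NVP-2 (-1.29), and HIST1H4H was called higher with NVP-2 (0.82, adjusted p = 0.0455). That HIST1H4H call was lost without any 1 of the NVP-2 libraries, SNS-032 replicate 1 or 3, or DMSO replicate 3.

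Summed over all genes of a class, the mix of histone RNA differed between treatments. The 6 H1 genes summed to 21.9 ± 2.52 FPKM with NVP-2 against 12.3 ± 0.69 FPKM in DMSO (SD, n = 3), 178% of the DMSO mean, and SNS-032 and THAL-SNS-032 gave 99.8% and 97.0%. The 13 H3 genes reached 125% of the DMSO mean with SNS-032, 95.2% of it with THAL-SNS-032 and 157% of it with NVP-2. The core classes with the highest sums were lower. H2A was at 64.4%, 69.7% and 76.1%, H2B at 65.1%, 66.9% and 49.0%, and H4 at 87.8%, 85.9% and 69.6%. The H2A and H4 sums hold both genes of each near-copy pair, so those measurements are repeated in them. In DMSO, HIST1H4K and HIST1H4J averaged 43.0 and 42.1 FPKM of the H4 sum of 115 FPKM. HIST2H2AA4 and HIST2H2AA3 averaged 22.3 and 22.2 FPKM of the H2A sum of 114 FPKM. HIST1H2BH and HIST1H2BK averaged 76.5 and 40.2 FPKM of the H2B sum of 170 FPKM. The percentages of these classes, and the total behind the shares, thus rest largely on a few genes. As a share of all histone FPKM, H1 took 7.11 ± 0.46% with NVP-2, against 2.83 ± 0.13% in DMSO, and H3 11.9 ± 0.05% against 5.37 ± 0.82%. H2B took 27.0 ± 0.43% with NVP-2, against 39.1 ± 3.26% in DMSO. The NVP-2 libraries did not overlap DMSO in these 3 shares. No p is given for sums over chosen genes.

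**Figure D3:**
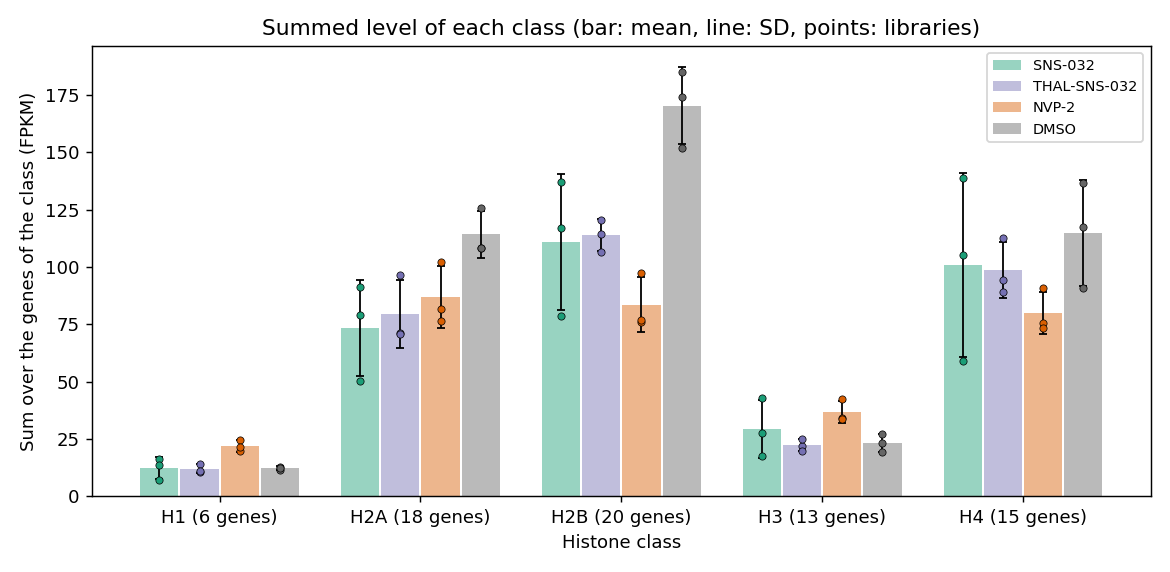
Summed FPKM of each histone class in the 4 groups, with bars for the mean of 3 libraries, lines for the SD and points for libraries, compounds left of DMSO. NVP-2 is the highest group for H1 (21.9 FPKM) and H3 and the lowest for H2B (49.0% of DMSO) and H4. The SNS-032 libraries are the most spread. The H2A and H4 sums hold both genes of each near-copy pair.

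By cluster, the 12 HIST2 genes summed to 64.8% of DMSO with SNS-032, 60.2% of it with THAL-SNS-032 and 71.9% of it with NVP-2, and the 56 HIST1 genes to 80.6%, 81.8% and 71.2%. Of 11 tested HIST2 genes, 1 was higher and 7 lower with THAL-SNS-032, and of 43 tested HIST1 genes 5 were higher and 6 lower. With NVP-2 the HIST2 counts were 2 higher and 3 lower and the HIST1 counts 13 higher and 11 lower. Neighbours within a cluster did not all share a direction. Along chromosome 6 the genes with a promoter at hand fall into 3 runs. HIST1H2AH, HIST1H3J and HIST1H4C, each higher with NVP-2, had no promoter at hand and are counted in none of the runs. The first, from HIST1H2AA to HIST1H4H, had 7 higher and 5 lower of 22 tested with NVP-2. The second, from HIST1H2BJ to HIST1H2BK, had 0 higher and 3 lower of 4, and the third, from HIST1H2BL to HIST1H2BO, had 3 higher and 3 lower of 13. Near copies count as separate genes here, such as HIST2H2AA3 and HIST2H2AA4 in HIST2 and HIST1H4J and HIST1H4K in the third run. All differences here are on the deposited scale.

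The genes were next split by what is known or annotated of their 3′ ends. Of 13 tested genes for which polyadenylated transcripts are known, 1 was higher and 5 lower with SNS-032, 1 higher and 8 lower with THAL-SNS-032, and 2 higher and 6 lower with NVP-2. Of the other 43, the counts were 5 and 6, 5 and 6, and 14 and 9. HIST2H2AA3 is among the 13 and its near copy HIST2H2AA4 among the 43, so 1 measurement counts on both sides. The medians with NVP-2 were -0.43 for the 13 and 0.24 for the 43. In the GENCODE 29 models, 21 tested genes had over 100 bases after the stem-loop, and 5 of them were higher and 9 lower with NVP-2. Of 6 with at most 100 bases after it, 1 was higher and 1 lower, and of 29 in whose models no stem-loop of the searched form was found, 10 were higher and 5 lower. Many of these 29 have short models that may end before the stem-loop, so they are not a group known to lack it. The near copies HIST1H4J, among the 6, and HIST1H4K, among the 29, were both lower and are 1 measurement. Gene-level FPKM depends on the transcript length the authors used, which is not given, and does not show where along a transcript the reads lie.

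SNS-032 and THAL-SNS-032, which differ by the linker and cereblon ligand, were compared at the same dose and time. Of the 56 tested genes, 0 were higher in the THAL-SNS-032 libraries, against 13.4% of all tested genes, and 1 was lower, against 16.7%. That gene was HIST2H2BE (-0.40 (SE 0.14, adjusted p = 0.0386)), whose 3 THAL-SNS-032 values all lay below the SNS-032 values. Its call was lost without SNS-032 replicate 2 or 3, any THAL-SNS-032 library, or NVP-2 replicate 2 or 3. Without SNS-032 replicate 1, 8 genes were lower with THAL-SNS-032. For 40 of the 56 genes the 95% interval stayed within a 2-fold change of FPKM + 1 either way, and for the other 16 such a change lies inside it. Of the 40, 26 averaged under 5 FPKM, where the same interval spans a wider fold in FPKM itself. For HIST1H2BH the interval ran from -0.17 to 0.67, for HIST1H2BK from -0.46 to 0.45 and for HIST1H1B from -0.57 to 0.45 on the log2 scale. The median of all genes lay 0.14 higher with THAL-SNS-032, and after centring 6 histone genes were higher and 2 lower, against 51.1% and 23.1% of all tested genes. All 3 pairs of compounds were compared, with p-values adjusted over the tested genes within each pair and not across pairs.

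**Figure D4:**
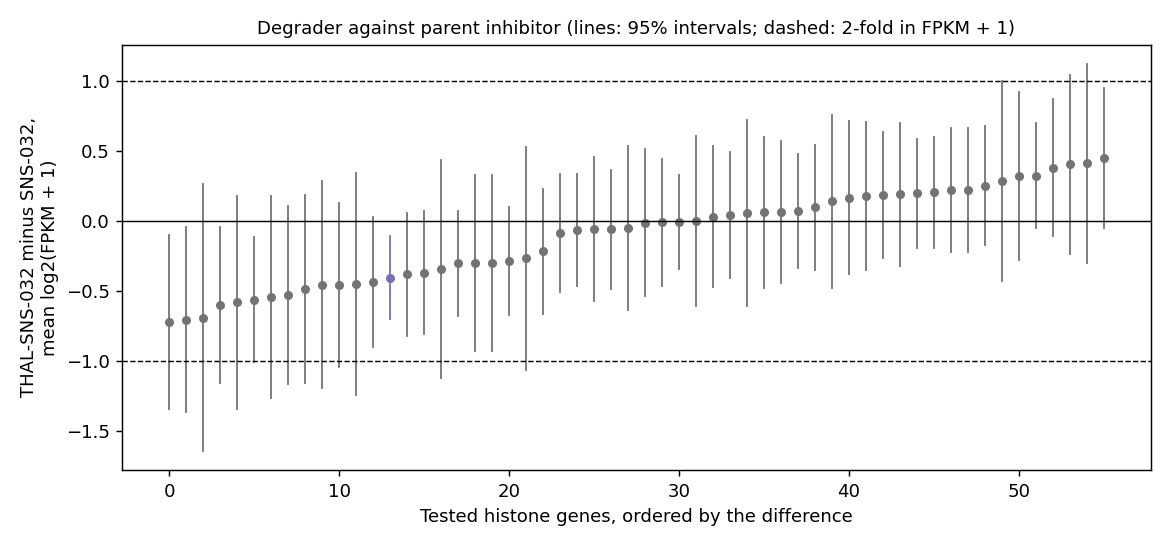
THAL-SNS-032 minus SNS-032 in mean log2(FPKM + 1) for the 56 tested histone genes, ordered by the difference, with 95% intervals and dashed lines at a 2-fold change of FPKM + 1 either way. HIST2H2BE (purple) is the 1 called gene, and 40 of the 56 intervals lie between the dashed lines.

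NVP-2 differed more from both. THAL-SNS-032 had 7 histone genes higher than NVP-2 (70% of all tested genes) and 15 lower (0.993%). SNS-032 had 7 higher than NVP-2 (52.6% of all tested genes) and 10 lower (0.782%). The median of all genes was 0.64 higher with THAL-SNS-032 and 0.48 higher with SNS-032 than with NVP-2, and after centring 1 histone gene was higher and 43 lower with THAL-SNS-032 (29.3% and 38% of all tested genes), and 1 higher and 41 lower with SNS-032 (24.7% and 59%). The 1 gene that stayed higher in both was HIST1H2BK. HIST1H1B gave the largest difference downwards, at -1.55 (SE 0.24, adjusted p = 0.000128) for THAL-SNS-032 and -1.49 (SE 0.24, adjusted p = 0.000110) for SNS-032. HIST1H4C (-1.49) and HIST2H3D (-1.33) followed for THAL-SNS-032, and HIST3H2BB (-1.24) and HIST1H3G (-1.07) for SNS-032. HIST1H2BK was the highest in the other direction, at 1.32 for THAL-SNS-032 and 1.33 for SNS-032. HIST1H2BH (0.73) and HIST2H2BC (0.70, lost without THAL-SNS-032 replicate 3) came next for THAL-SNS-032, and HIST2H2BC (1.14) and HIST1H2AC (1.09) for SNS-032. Between THAL-SNS-032 and NVP-2 the 95% interval lay within a 2-fold change of FPKM + 1 for 32 of the 56 genes, and between SNS-032 and NVP-2 for 34. Without SNS-032 replicate 1, 12 genes were higher with SNS-032 than with NVP-2. The 7 genes higher with THAL-SNS-032 than with NVP-2 became 3 without THAL-SNS-032 replicate 3 or NVP-2 replicate 1 and 4 without THAL-SNS-032 replicate 2 or NVP-2 replicate 3, and the 15 lower genes became 8 without NVP-2 replicate 2. The 7 higher with SNS-032 than with NVP-2 became 4 without SNS-032 replicate 3 or NVP-2 replicate 1.

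Genes outside the family but tied to it went lower. Of 12 replication-independent variant histone genes, whose transcripts are polyadenylated, 10 were tested, and 0 were higher and 9 lower with each compound, with medians of -2.29 for SNS-032, -2.45 for THAL-SNS-032 and -3.20 for NVP-2. H2AFZ, the most abundant, averaged 308 ± 29.3 FPKM with NVP-2, against 2330 ± 190.3 FPKM in DMSO (SD, n = 3 each), and H2AFX, the DNA damage variant, averaged 9.58 ± 1.53 against 233 ± 30.04 FPKM. H3F3A was the 1 variant not called, at -0.38, -0.50 and 0.51 (SE 0.98 each). Its libraries were too spread to show whether it changed: it averaged 4.12 ± 4.35 FPKM with NVP-2 and 3.83 ± 6.33 FPKM in DMSO. Of the factors that make histone mRNA, 21 were tested and all 21 were lower with each compound. SLBP averaged 89.7 ± 28.4 FPKM with SNS-032, 28.6 ± 2.42 FPKM with THAL-SNS-032 and 7.89 ± 0.906 FPKM with NVP-2, against 325 ± 22.7 FPKM in DMSO, differences of -1.90, -3.46 and -5.20. LSM10, a protein of the U7 particle that guides the cut, had differences of -4.14, -4.32 and -5.16. NPAT, the coactivator of histone genes, had -2.14, -1.97 and -3.15. The 9 tested decay and translation factors, 14 histone chaperones and 20 S phase genes were all lower with each compound, with NVP-2 medians of -2.80, -3.04 and -3.15. These medians were below the median of all genes with NVP-2, and after centring the calls split in both directions: 8 of the 21 factors were higher and 12 lower, and 7 of the 20 S phase genes were higher and 11 lower. These lists lie near the 97.1% of all tested genes called lower with NVP-2. The part that lower SLBP, processing factor or S phase transcripts had in the histone levels was not tested.

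**Figure D5:**
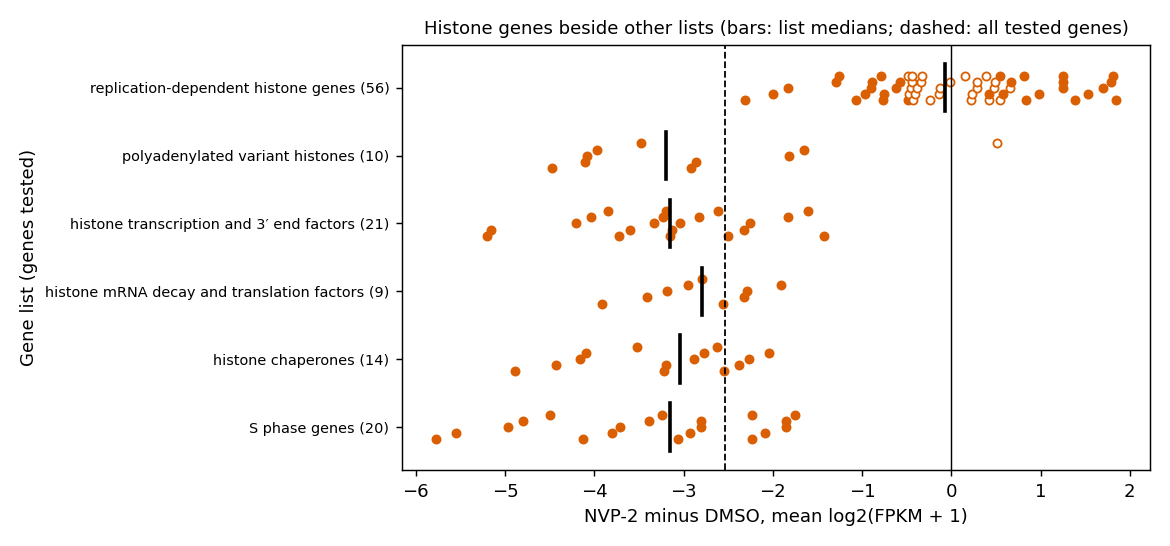
NVP-2 minus DMSO in mean log2(FPKM + 1) for the histone genes and 5 related lists, 1 point a gene, filled where called, with a bar at each list's median and the dashed line at the median of all tested genes. The histone genes lie around -0.07 (0.16 with near copies counted once) and the 5 lists around medians from -2.80 to -3.20. H3F3A, not called and widely spread between libraries (SE 0.98), lies apart from its list. After centring, calls in the 5 lists go both ways.

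The 16 untested genes averaged under 1 FPKM over the 12 libraries, and the highest single value among them was the 3.30 FPKM of HIST1H4B given here. They include the testis genes HIST1H1T, HIST1H2AA, HIST1H2BA and HIST3H3, none of which exceeded 0.317 FPKM in any library. HIST1H4B had 0.269, 1.94 and 0.724 FPKM with SNS-032, 0.0787, 0.0873 and 0.0808 FPKM with THAL-SNS-032 and 1.44, 1.33 and 3.296 FPKM with NVP-2, against 0.165, 0.9002 and 1.02 FPKM in DMSO. NVP-2 gave the highest mean and the THAL-SNS-032 libraries were at the floor. HIST1H4A was also at the floor with THAL-SNS-032 and had 0.618, 1.79 and 0.959 FPKM with SNS-032, 0.0868, 0.0935 and 0.0889 FPKM with THAL-SNS-032 and 0.36, 0.344 and 0.219 FPKM with NVP-2, against 0.155, 0.8102 and 0.897 FPKM in DMSO. The single HIST4 gene, HIST4H4, stayed between 0.0692 and 0.680 FPKM.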

How the data were processed

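RNA from 12 libraries of MOLT4 cells was used, 3 in each of 4 groups set by the labels. Per the labels' protocols, cells were counted, spike-in RNA was added at lysis and libraries were poly(A)-selected and stranded. The submitters' processing notes name HISAT, Cufflinks 2.0.0 and hg19; the annotation and the handling of strand and of reads that match several genes are not given in the sources used here. The authors deposited FPKM per gene, already put on a common scale between libraries, and no counts, so depth is unknown and no counting interval is given.

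Of 23713 rows, 92 spike-ins were set aside and the first of each of 2 repeated symbols was kept, leaving 23619 genes. The 11379 genes that averaged at least 1 FPKM were tested as log2(FPKM + 1) in limma 3.58.1 (R 4.3.3, eBayes with trend, 8 residual degrees of freedom), with no further normalization. Calls are two-sided at a Benjamini-Hochberg adjusted p under 0.05 over all tested genes within each of 6 comparisons. The test was checked on simulated data. Values in every library are given for the 3 members of each class with the highest mean and the 3 largest called rises and falls of each comparison, and others by range, by counts or by the difference that completes a count; HIST1H4B and HIST1H4A were added after their values were seen. The members and gene lists were chosen with earlier results of these data known, and the motif AAACACA was added after values were seen.

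All 72 symbols matched RefSeq (GRCh38.p14) by symbol or synonym, which gave 64 promoters, and GENCODE 29, which gave transcripts for 72. Motifs were searched on both strands. A stem-loop was taken as 16 bases that begin with GG, end with CC, pair from both ends (G with T allowed) and hold T and A at fixed places of the loop; HIST3H2A and HIST3H2BB lie on chromosome 1. Alternatives were a pseudocount of 0.1, no filter, a mean of 5 FPKM, median-centred libraries, a replicate block, limma without trend and each library left out. Plots used matplotlib 3.10.9 (Python 3.11.15).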

Additional observations from a re-analysis of the deposited data

How the results depend on the processing

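The scale between libraries mattered most. Median centring of the libraries moved the counts of histone genes higher and lower to 55 and 0 with SNS-032, 56 and 0 with THAL-SNS-032 and 56 and 0 with NVP-2 against DMSO, to 6 and 2 for THAL-SNS-032 against SNS-032, to 1 and 43 for THAL-SNS-032 against NVP-2 and to 1 and 41 for SNS-032 against NVP-2. Centring removes a shift of all genes, so values that fell by less than the shift turn positive by construction. A gene of low level in DMSO cannot fall by more than the shift on this scale. For the called falls, and for uncalled genes given library by library, the centred differences from DMSO that turned were, in the order SNS-032, THAL-SNS-032, NVP-2, HIST1H1C 1.75, 1.87 and 2.58; HIST1H2BC 0.99, 1.46 and 1.89; HIST1H2BH 1.40, 1.73 and 1.71; HIST1H2BK 1.19, 1.26 and 0.65; HIST1H3F 2.08, 1.95 and 2.48; HIST1H4J 1.88, 2.15 and 2.21; HIST1H4K 1.88, 2.14 and 2.18; HIST2H2AA3 1.37, 1.68 and 2.63; HIST2H2AA4 1.36, 1.67 and 2.62; HIST2H2AC 1.13, 1.42 and 2.07; HIST2H2BC 1.48, 1.13 and 1.13; HIST2H2BE 1.79, 1.47 and 1.99; HIST2H4A 1.90, 1.69 and 2.52. HIST1H2AG turned to 1.66 for SNS-032 and 2.34 for NVP-2. HIST1H4I turned to 1.14 for SNS-032 and 1.67 for NVP-2. HIST1H2AC turned to 1.89 for THAL-SNS-032 and 2.07 for NVP-2. HIST1H2BG turned to 1.80 for THAL-SNS-032. HIST1H2BJ turned to 1.59 for THAL-SNS-032. HIST1H3A turned to 1.51 for THAL-SNS-032. HIST1H3H turned to 2.20 for THAL-SNS-032. HIST2H2BA turned to 1.46 for THAL-SNS-032. HIST2H2BF turned to 1.47 for THAL-SNS-032. HIST3H2A turned to 0.43 for THAL-SNS-032 and 0.96 for NVP-2. HIST1H2AK turned to 2.39 for NVP-2. HIST1H2BE turned to 2.19 for NVP-2.

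Requiring a mean of 5 FPKM left 14 histone genes, of which 1 was higher and 6 lower with SNS-032, 2 and 6 with THAL-SNS-032 and 3 and 6 with NVP-2, 0 and 0 for THAL-SNS-032 against SNS-032, 5 and 1 for THAL-SNS-032 against NVP-2, and 2 and 1 for SNS-032 against NVP-2. With no filter the counts for THAL-SNS-032 against NVP-2 became 3 higher and 7 lower. The 1 gene lower for THAL-SNS-032 against SNS-032 became 0 with a pseudocount of 0.1 and 0 in limma without trend. With each library's median deviation removed, 1 of 18 correlations between the deviations of same-numbered libraries passed 0.1 (range -0.15 to 0.17). A shift of a whole library is left out of these correlations. Replicate 1 had the lowest median of each group, at -2.61 with SNS-032, -2.32 with THAL-SNS-032, -3.05 with NVP-2 and -0.076 in DMSO. Whether the numbers pair the libraries is thus not settled. With a replicate block the count lower for THAL-SNS-032 against SNS-032 was 3 in place of 1, and no other count moved by over 1.5 times.

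Leaving out each library in turn gave, higher and lower in turn, 3 to 13 and 10 to 18 for SNS-032 against DMSO, 4 to 9 and 9 to 19 for THAL-SNS-032 against DMSO, 12 to 16 and 14 to 18 for NVP-2 against DMSO, 0 to 2 and 0 to 8 for THAL-SNS-032 against SNS-032, 3 to 9 and 8 to 17 for THAL-SNS-032 against NVP-2, 4 to 12 and 8 to 14 for SNS-032 against NVP-2. Leaving out a library keeps the pooled spread of the other groups. Depth is unknown, so counting error could not be set beside these ranges, and genes of a few FPKM such as HIST2H3A are measured least firmly. Under the other settings no count moved by over 1.5 times. The cause of the shifts with left-out libraries was not tested.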
